A study of Homo sapiens with 8 samples.

Results

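MYC and the partners it shares the protein MAX with were followed in CAL-27, an established human line of head and neck squamous carcinoma. The members are 7 genes, MYC, MAX, MXD1, MXD3, MXD4, MXI1 and MNT, chosen by the gene name that the array gives each probe. They hold 16 of the 41000 probes on the array. Of these 16 probes, 12 lay above background on at least 2 arrays, and each of the 7 genes kept at least 1 such probe among the 12641 genes tested.

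MYC is a transcription factor of the basic helix-loop-helix leucine zipper family that binds DNA only as a pair with MAX, at the E-box, the palindrome CACGTG and related letters. MYC and MAX together activate genes of ribosome production, metabolism and cell division. The MXD proteins, MXI1 (also named MXD2) and MNT pair with MAX at the same sites and recruit SIN3 corepressors. MYC RNA and protein are short-lived and depend on growth signals, and MXD1 is known to rise when squamous epithelium differentiates.

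The study exposed serum-starved cells to inhibitors of protein kinase C, a family of kinases that relay signals from membrane lipids. All cells were starved of serum for 24 h. Total RNA was then taken after 24 h with the compound the labels call Go, whose dose they do not state (n = 2), after 24 h with enzastaurin at 10 µM (n = 3), or from the control group (n = 3), for which no vehicle is named. Each sample was hybridised in 1 colour to its own array. Nothing in the labels tells whether the replicates of a group were grown separately, and the p-values then cover only array-to-array spread, which may be technical.

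Arrays detected 52.1% to 57.3% of their probes. The 8 keratinocyte markers on the array (KRT5, KRT14, KRT17, TP63, SFN, DSG3, PKP1 and CDH1) were above background on all 8 arrays. So were CD3E and CD14, from 4 leukocyte markers of which 2 to 3 were detected per array, and VWF, from 4 endothelial markers of which 1 to 2 were detected. Of 4 fibroblast markers 1 to 3 were detected. The part of these signals in the results was not tested.

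The treatments are entangled with the slides. Spot positions place Go 1 with control 1, 2 and 3 on a first slide, and Go 2 with enzastaurin 1, 2 and 3 on a second, so enzastaurin and control share no slide and are linked only through the Go arrays. For that contrast slide and treatment cannot be told apart except through Go. With the slide as a block, Go against control rests on Go 1 and Go against enzastaurin on Go 2. The leading principal component, with 76.2% of the variance, placed Go at 0.2 and 22.3, enzastaurin at 27.1 to 30.4 and control at -47.6 to -20.6.

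Values are log2 intensities after background correction and normalisation between arrays, and differences are log2 differences, so that 1 is a doubling. They describe RNA per amount of labelled RNA in a bulk culture, where fewer cells with a transcript and less of it per cell cannot be told apart. A difference was called when limma's adjusted p (Benjamini-Hochberg over the 12641 genes) was under 0.05.

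Many genes were called, and the members' counts are read against that background. For groups that do not overlap in a gene, the share over all genes was not counted. For enzastaurin against control 55.1% of genes were called, 18.1% higher and 37% lower. Of the 7 members 6 were called, MXD1 higher and MYC, MAX, MXD3, MXI1 and MNT lower. For Go against control 31.9% of genes were called, 11.6% higher and 20.3% lower, and 4 members, MXD1 higher and MAX, MXD3 and MNT lower. For Go against enzastaurin only 8.46% were called, 5.1% higher and 3.35% lower, and 2 members, MYC and MNT, both higher. The median difference of the members was -0.70, -0.11 and 0.41 in the 3 comparisons, beside -0.14, -0.10 and 0.03 over all genes. With the slide as a block the share of genes called was 4.28%, 6.54% and 7.95%, and the members called numbered 0, 1 (MXD1) and 1 (MYC).

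**Figure D1:**
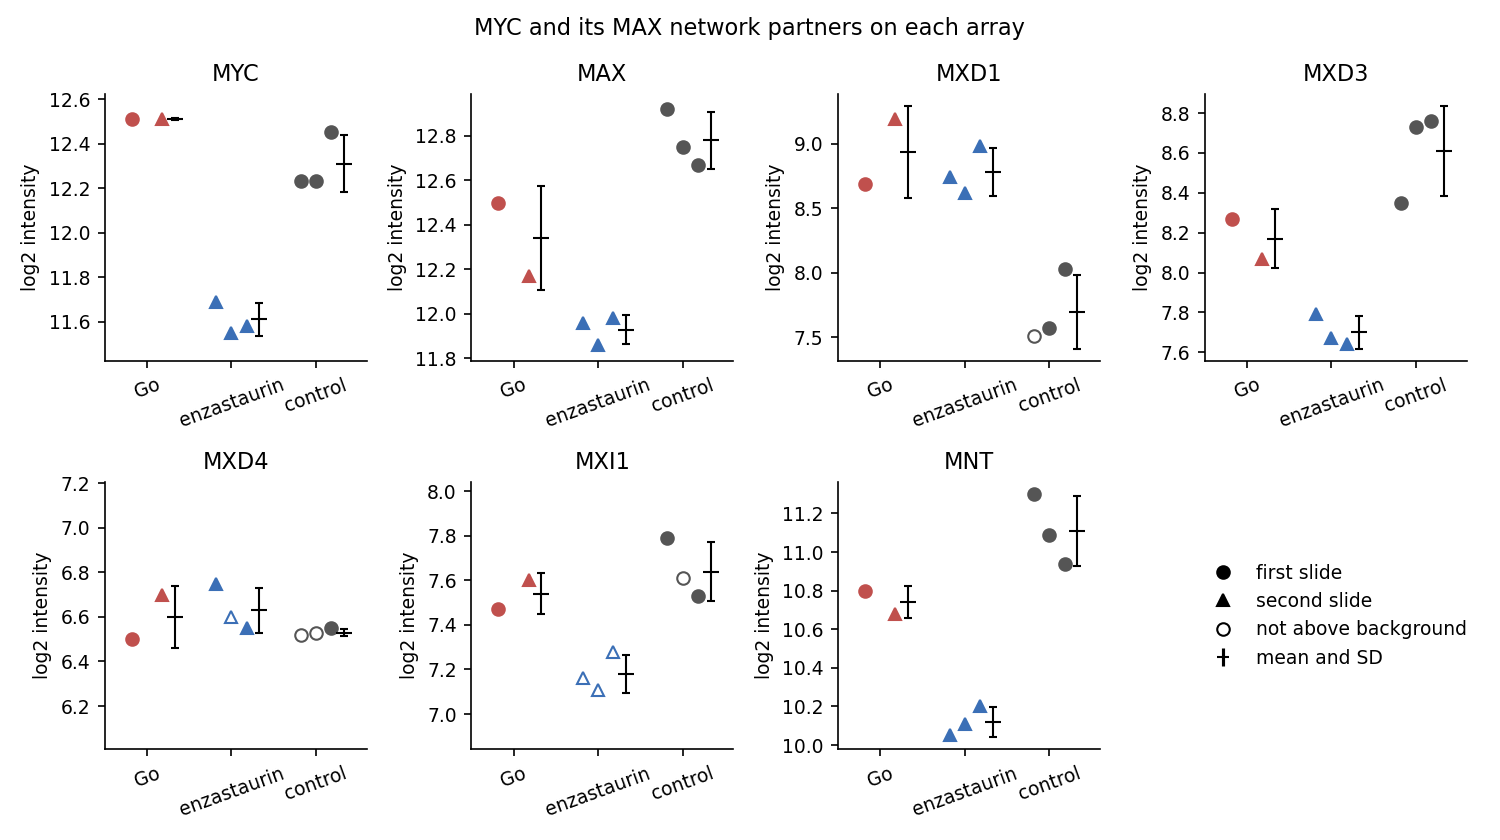
Log2 intensity (vertical axis) of the probe that stands for each of the 7 genes on each of the 8 arrays, with Go at the left, enzastaurin in the middle and control at the right. Points are single arrays (circles on the first slide, triangles on the second, open where not above background), and crossbars with error bars are group means and SD. MYC stands at 12.51 on both Go arrays and at 11.55 to 11.69 on the enzastaurin arrays, while MXD1 is lower on the 3 control arrays than on the other arrays.

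MYC, the activator of the network, separated the inhibitors from each other. Its brightest probe (A_23_P215956) read 12.51 on both Go arrays, 11.69, 11.55 and 11.58 on the enzastaurin arrays, and 12.23, 12.23 and 12.45 on the control arrays. Every enzastaurin array was thus below every control array, and both Go arrays were above all others.

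Group means for MYC were 12.51 ± 0.00455 (SD, n = 2) with Go, 11.61 ± 0.075 (SD, n = 3) with enzastaurin and 12.31 ± 0.128 (SD, n = 3) in control. MYC was higher with Go than with enzastaurin by 0.90 (SE 0.095, 95% interval 0.69 to 1.12, limma adjusted p = 0.00173), a fold of 1.87. Only 1.22% of genes differed by at least as much in that comparison. Within the second slide alone Go 2 exceeded the mean of the enzastaurin arrays by 0.90, and with the slide as a block the adjusted p was 0.00771. The Go arrays of the 2 slides differed from each other by 0.01 for this probe. Go 2 is the only Go array on the second slide and, judged by the scanner's numbering of the arrays, lies first along it. Place and treatment are therefore confounded there.

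Against control, MYC was lower with enzastaurin by -0.70 (SE 0.085, 95% interval -0.89 to -0.50, limma adjusted p = 0.000501). The estimate stayed at -0.70 with the slide as a block, but its standard error grew to 0.169 and limma's adjusted p to 0.0589, so the call was lost. Go and control differed by 0.20 (SE 0.095, 95% interval -0.01 to 0.42, limma adjusted p = 0.122), which did not pass. That interval leaves room for no difference and for a level higher by up to 0.42. Without control 3 the difference was 0.28 and passed (limma adjusted p = 0.0281).

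The fall with enzastaurin appears after normalisation. In the authors' deposited intensities, which are background-subtracted and not normalised, this probe read 5406 and 4940 with Go, 3309, 3636 and 3004 with enzastaurin, and 3385, 2851 and 4568 in control. Both Go arrays were still the highest, while the enzastaurin and control values overlapped. The 75th percentile of all deposited values was 384 and 316 on the Go arrays, 378 to 457 on the enzastaurin arrays and 251 to 342 on the control arrays. All enzastaurin arrays were brighter than all control arrays by that measure while their MYC signals overlapped, and 3 other scalings of the arrays, to the 75th percentile, to the median of probes above background and by cyclic loess, kept the call.

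A further MYC probe (A_24_P178011) carries the accession of an mRNA started at the far upstream promoter P0. It read 8.17 and 7.22 with Go, 7.21, 7.12 and 7.05 with enzastaurin, and 7.61, 7.93 and 8.23 in control. Enzastaurin was lower than control in this probe too, by -0.80 (limma adjusted p over probes 0.0256). The Go arrays, equal in the brightest probe, were far apart in this one, Go 2 lying beside the enzastaurin arrays of its own slide. Go against enzastaurin gave 0.57 (limma adjusted p = 0.259) and did not pass. The last MYC probe (A_24_P38363) was not above background on any array.

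**Figure D2:**
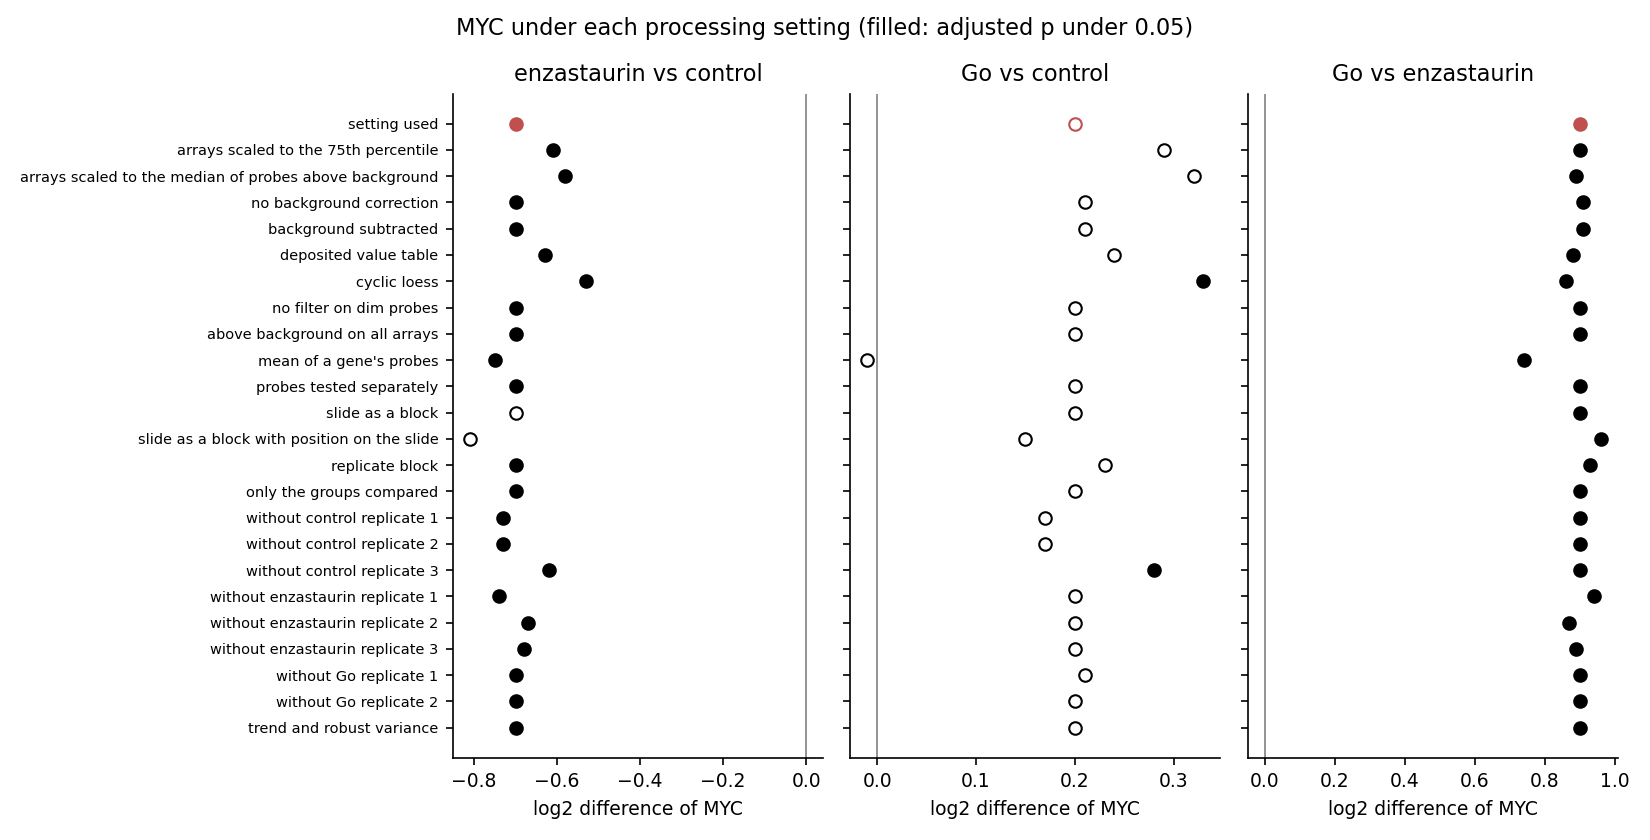
MYC log2 differences (horizontal axis) for enzastaurin against control, Go against control and Go against enzastaurin, under each way of processing the arrays listed at the left. Filled points passed limma's adjusted p of 0.05 and open points did not. Go against enzastaurin lies between 0.74 and 0.96 and passes in every setting tried, whereas enzastaurin against control loses its call with the slide as a block.

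MAX, the partner the others share, had 3 probes above background. The brightest (A_23_P205549) read 12.50 and 12.17 with Go, 11.96, 11.86 and 11.98 with enzastaurin, and 12.92, 12.75 and 12.67 in control. Go lay between the other groups. MAX was lower with enzastaurin than in control by -0.85 (SE 0.105, limma adjusted p = 0.000528) and lower with Go than in control by -0.44 (SE 0.118, limma adjusted p = 0.0246). Go against enzastaurin, 0.41, did not pass (SE 0.118, limma adjusted p = 0.0687), but did without Go 2 (0.57, limma adjusted p = 0.0182).

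The other probes of MAX, annotated to further transcript variants, moved less. The probe A_23_P151662 read 8.70 and 8.37 with Go, 8.46 to 8.54 with enzastaurin and 8.46 to 8.68 in control. These ranges overlap, and enzastaurin against control was -0.08 (limma adjusted p over probes 0.538). The probe A_23_P436138 was lower with enzastaurin by -0.28 (limma adjusted p over probes 0.0245). The size of the MAX difference thus differed between probes, which also differ in brightness, and the cause was not tested. Both MAX calls were lost with the slide as a block, at -0.52 (limma adjusted p = 0.099) for enzastaurin and -0.28 (limma adjusted p = 0.154) for Go. The Go call was also lost without control 1 (limma adjusted p = 0.0657), without control 2 (limma adjusted p = 0.0682) and without Go 2 (limma adjusted p = 0.154).

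**Figure D3:**
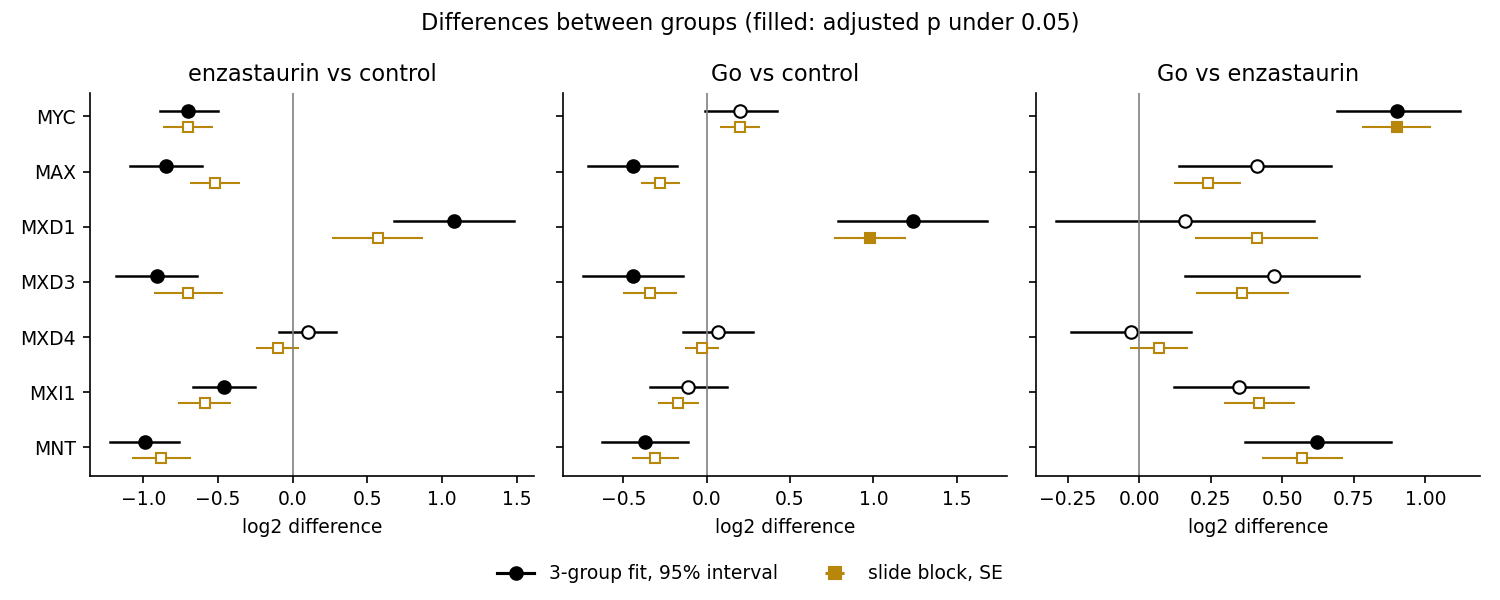
Log2 differences (horizontal axis) of the 7 genes for enzastaurin against control, Go against control and Go against enzastaurin. Circles with 95% intervals are the fit of the 3 groups and squares with standard errors the fit with the slide as a block, filled where limma's adjusted p was under 0.05. Enzastaurin against control runs from -0.99 for MNT to 1.08 for MXD1, and with the slide as a block only MXD1 for Go against control and MYC for Go against enzastaurin stay filled.

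MXD1, an antagonist of MYC tied to differentiation, was the 1 member called higher than in control. Its brightest probe (A_24_P379750) read 8.69 and 9.19 with Go, 8.74, 8.62 and 8.98 with enzastaurin, and 7.51, 7.57 and 8.03 in control. Every array of both inhibitors lay above every control array. The probe was above background on all inhibitor arrays but not on control 1.

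MXD1 was higher with Go than in control by 1.24 (SE 0.198, 95% interval 0.79 to 1.68, limma adjusted p = 0.00708). With enzastaurin it was higher than in control by 1.08 (SE 0.177, 95% interval 0.68 to 1.48, limma adjusted p = 0.00148). The inhibitors were not separated by this probe, with a difference of 0.16 (95% interval -0.29 to 0.61, limma adjusted p = 0.642). With the slide as a block the Go difference was 0.98 and kept its call (limma adjusted p = 0.0389), and the enzastaurin difference was 0.57 and did not (limma adjusted p = 0.252).

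A dimmer MXD1 probe (A_23_P408094) gave another order. It read 7.05 and 7.12 with Go, 6.72, 6.65 and 6.59 with enzastaurin, and 6.54, 6.85 and 6.86 in control. Both Go arrays were the highest in this probe, which they were not in the brightest. Enzastaurin lay inside the control range, at -0.10 (limma adjusted p over probes 0.446). Go against control was 0.33 in this probe (limma adjusted p over probes 0.0557) and did not pass. The rise with enzastaurin thus rested on 1 of the 2 MXD1 probes.

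MXD3, a family member found mainly in dividing cells, read 8.27 and 8.07 with Go, 7.79, 7.67 and 7.64 with enzastaurin, and 8.35, 8.73 and 8.76 in control. Go lay between the other groups here too. It was lower with enzastaurin than in control by -0.91 (SE 0.12, limma adjusted p = 0.000642), and lower with Go by -0.44 (SE 0.134, limma adjusted p = 0.0368). Blocking on the slide gave -0.70 (limma adjusted p = 0.106) and -0.34 (limma adjusted p = 0.2), neither of them called. The Go call was also lost without any 1 array other than Go 1 and control 1, at limma adjusted p of 0.0587 to 0.2. For Go against enzastaurin MXD3 differed by 0.47 (limma adjusted p = 0.067), which passed without control 1 (limma adjusted p = 0.0238) and without control 3 (limma adjusted p = 0.0495). Its further probe was not above background on any array.

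MXD4, a repressor of the same family, read 6.50 and 6.70 with Go, 6.55 to 6.75 with enzastaurin and 6.52 to 6.55 in control. It was above background on both Go arrays, 2 enzastaurin arrays and 1 control array, at the lower edge of what the arrays measure. No comparison passed, enzastaurin against control being 0.10 (95% interval -0.09 to 0.29, limma adjusted p = 0.333). The other MXD4 probes were above background on 1 array and on 0 arrays.

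MXI1, another MAX-dependent repressor, read 7.47 and 7.60 with Go, 7.16, 7.11 and 7.28 with enzastaurin, and 7.79, 7.61 and 7.53 in control. It was not well above background on any enzastaurin array, and above it on both Go arrays and 2 of the 3 control arrays. Its level with enzastaurin is thus only bounded, at least 1.38-fold lower than in control by the measured means of 7.18 and 7.64 (limma adjusted p = 0.00329). Raising the enzastaurin values to the lowest detected signal of their arrays left this difference unchanged, because the probe's own value exceeded that signal on each. That step therefore sets no bound on the difference. With Go MXI1 was 1.28-fold higher than with enzastaurin by measured means of 7.54 and 7.18, which did not pass (limma adjusted p = 0.0683). It did pass without control 1 (limma adjusted p = 0.0462) and without control 3 (limma adjusted p = 0.0469). The adjusted p against control was 0.0869 in the slide block.

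MNT, a repressor present in most cells and often described as the general counterweight of MYC, had the most negative enzastaurin difference among the members. Its brightest probe (A_23_P341443) read 10.80 and 10.68 with Go, 10.05, 10.11 and 10.20 with enzastaurin, and 11.30, 11.09 and 10.94 in control. As with MAX and MXD3, Go lay between the others, as it did on the leading principal component of all genes. Enzastaurin against control was -0.99 (SE 0.101, 95% interval -1.22 to -0.76, limma adjusted p = 0.000323). MNT was higher with Go than with enzastaurin by 0.62 (SE 0.113, limma adjusted p = 0.0149) and lower with Go than in control by -0.37 (SE 0.113, limma adjusted p = 0.0378).

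None of these MNT calls held with the slide as a block, where limma's adjusted p was 0.052 for enzastaurin against control, 0.0501 for Go against enzastaurin and 0.178 for Go against control. The call of Go against enzastaurin was also lost without enzastaurin 1 (limma adjusted p = 0.0722), without enzastaurin 2 (limma adjusted p = 0.0668) and without Go 1 (limma adjusted p = 0.0501). That of Go against control was lost without any 1 array other than Go 1 and control 3, at limma adjusted p of 0.0566 to 0.178. A dim second MNT probe (A_24_P350969) ran the other way. It read 6.92 and 7.25 with Go, 7.19, 7.14 and 7.19 with enzastaurin, and 6.23, 6.81 and 6.85 in control. Enzastaurin was higher than control in it by 0.55 (limma adjusted p over probes 0.027), so the direction of MNT depends on the probe.

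**Figure D4:**
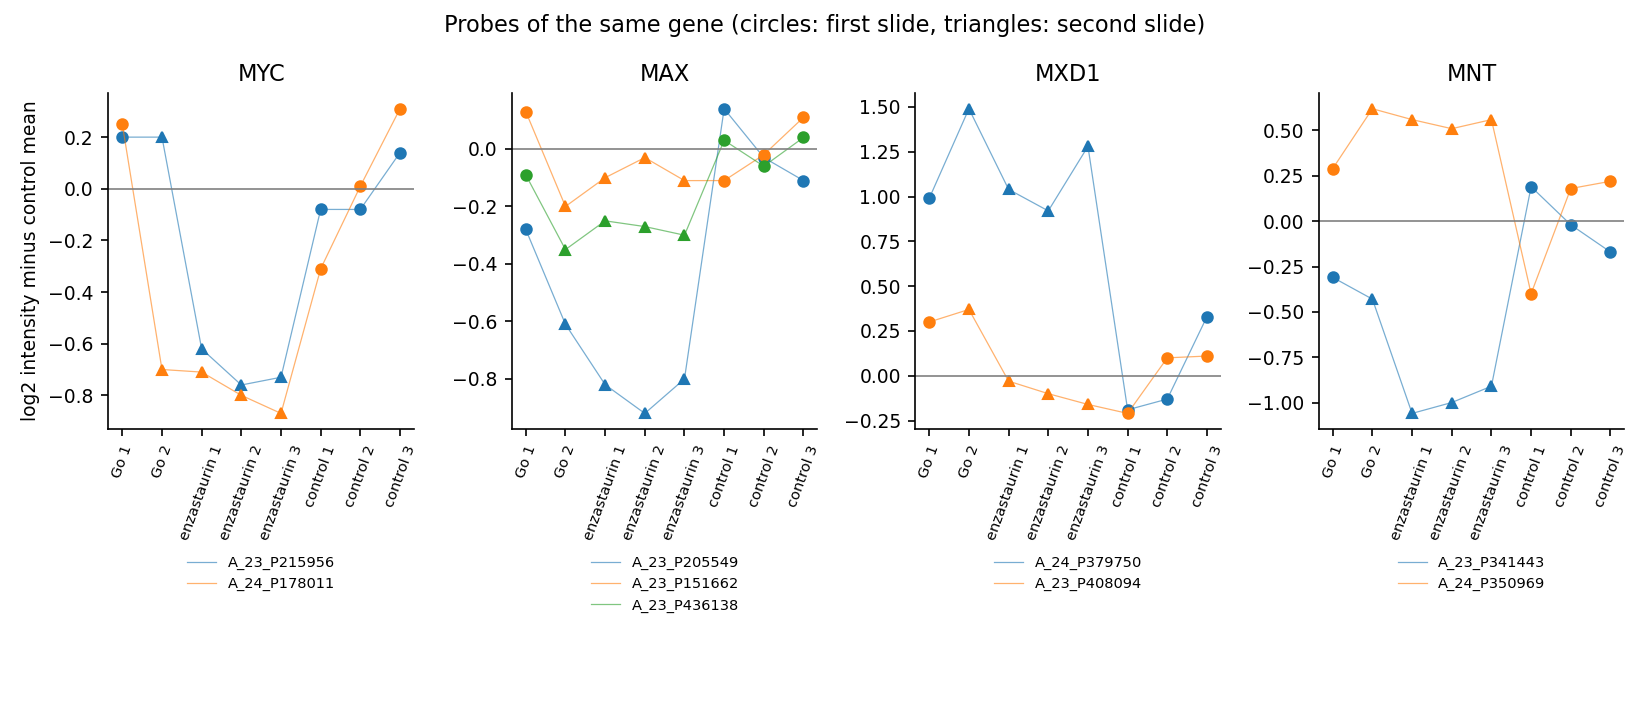
Log2 intensity minus the control mean (vertical axis) for every probe above background of MYC, MAX, MXD1 and MNT on the Go, enzastaurin and control arrays, with 1 colour per probe, circles for the first slide and triangles for the second. The 2 MNT probes run in opposite directions, and the 2 MYC probes part at Go 2. There they read 12.51 and 7.22 before their control means, 12.31 and 7.92, are subtracted.

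The slides separated some of the members. The probes standing for MAX, MXD3 and MNT took values that did not overlap between the slides, as did 37.9% of all genes tested. MAX read 12.50 to 12.92 on the first slide and 11.86 to 12.17 on the second. The Go arrays differed in the same sense, Go 2 minus Go 1 being -0.33 for MAX, -0.21 for MXD3 and -0.12 for MNT. The probes standing for MYC, MXD1, MXD4 and MXI1 overlapped between the slides, as did the dimmer MXD1 probe. The dimmer MYC probe (A_24_P178011) did not, with 7.61 to 8.23 on the first slide and 7.05 to 7.22 on the second. The part of the slide in these results was not tested beyond the fit with the slide as a block.

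Among the members MAX and MNT varied most alike, with a correlation of 0.97 over the 8 arrays, and MXI1 and MNT had 0.96. MYC had 0.71 with MAX, 0.79 with MNT and -0.25 with MXD1. These correlations are over arrays that share slides and treatments and are given as a description.

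Of the members, 2 carry the E-box in the window searched, and they are shown because the network's own repressors are among the genes whose RNA was measured. Promoter windows of 250 bases before to 50 after the start were read from RefSeq on GRCh38.p14. Of the 6 members with a window, MXD4 and MNT held CACGTG, a palindrome that reads alike on both strands, against 8.77% of the 27305 genes with a window. Each stretch is printed 5′ to 3′ on the gene's strand, the minus strand, with the E-box in capitals. The MXD4 stretch is chr4:2262240-2262359, with the first base of the E-box 238 before the start, and the MNT stretch is chr17:2401191-2401310, with it 193 before the start.
MXD4: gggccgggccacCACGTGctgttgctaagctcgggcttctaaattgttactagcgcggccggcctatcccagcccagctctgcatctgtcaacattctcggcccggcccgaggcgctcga
MNT: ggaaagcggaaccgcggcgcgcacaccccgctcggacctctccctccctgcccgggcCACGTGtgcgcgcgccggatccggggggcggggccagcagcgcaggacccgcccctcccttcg

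The related letters CACGCG or CGCGTG, searched on both strands, stood in the windows of MXD3 and MXI1, against 13.5% of those genes. A gene was counted if any of its windows held the letters. The members with an E-box did not share a pattern on the arrays, since MXD4 was uncalled in all comparisons and the brightest probe of MNT was called in all of them. A match is a description of letters and not a bound site.

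The genes around the members were followed through 8 others of the MAX and MLX network, of which 7 could be tested. MYCN, a close relative of MYC usually confined to the nervous system and embryo, read 9.86 and 8.85 with Go, 8.65, 8.61 and 8.38 with enzastaurin, and 12.45, 12.09 and 10.72 in control (A_23_P303390). All inhibitor arrays lay below all control arrays, by -3.20 for enzastaurin (SE 0.416, limma adjusted p = 0.000611) and -2.39 for Go (SE 0.465, limma adjusted p = 0.0115). Neither passed with the slide as a block, at limma adjusted p of 0.12 and 0.0744. The other MYCN probe (A_24_P94402) was above background on only 1 array, so the probes disagree on whether MYCN was detected. MYCL, a further relative, had 2 probes above background on 0 arrays.

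MLXIPL, the glucose-sensing factor also called ChREBP that pairs with MLX, was lower with enzastaurin by -1.55 (SE 0.224, limma adjusted p = 0.000893) and with Go by -1.14 (SE 0.25, limma adjusted p = 0.0154), each against control. A further MLXIPL probe (A_23_P145786) differed in the same direction, by -0.62 (limma adjusted p over probes 0.00761) and -0.49 (limma adjusted p over probes 0.0486). ARRDC4, an arrestin-like gene that MLX complexes activate, rose with Go by 1.58 (SE 0.182, limma adjusted p = 0.00331) and with enzastaurin by 1.29 (SE 0.163, limma adjusted p = 0.000548). Only the Go call for ARRDC4 kept its adjusted p under the slide block, at 0.0125.

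TXNIP, the other known target of MLX complexes, had another order than ARRDC4. TXNIP read 14.26 and 13.25 with Go, 13.35, 12.94 and 13.10 with enzastaurin, and 13.71, 13.75 and 13.74 in control. It was lower with enzastaurin by -0.60 (SE 0.221, limma adjusted p = 0.0446), and the Go arrays stood on either side of control, at a mean difference of 0.02. MGA, a MAX partner that joins a Polycomb complex, was higher with Go than in control by 0.42 (SE 0.111, limma adjusted p = 0.0236). The brightest probes of MLX and MLXIP passed in no comparison. Dimmer MLXIP probes were lower with Go by -0.54 (A_23_P33027, above background on 3 arrays, limma adjusted p over probes 0.0104) and with enzastaurin by -0.19 (A_24_P415624, limma adjusted p over probes 0.0497), each against control. The calls of MLXIPL and MGA were not kept with the slide as a block, at limma adjusted p of 0.0766 to 0.0906. The direction of TXNIP for enzastaurin against control turned in that fit, to 0.40 (SE 0.206, limma adjusted p = 0.24).

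Known MYC targets were read next, from lists chosen with earlier results of these data known. Of 22 targets in ribosome biogenesis, enzastaurin against control gave 4 higher, 8 lower and 10 uncalled, with a median of -0.11. Go against control gave 4 higher, 3 lower and 15 uncalled, and Go against enzastaurin 1 higher and 21 uncalled. Over all genes 55.1%, 31.9% and 8.46% were called in these comparisons. With medians of -0.03 and 0.00 beside -0.10 and 0.03 over all genes, the medians of the list lay close to those of all genes.

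DKC1, the pseudouridine synthase of small nucleolar and telomerase RNPs, was the 1 gene of that list higher with Go than with enzastaurin, by 0.34 (SE 0.0792, limma adjusted p = 0.0344). It was lower with enzastaurin than in control by -0.56 (SE 0.0708, limma adjusted p = 0.000567). NPM1, the nucleolar protein nucleophosmin, differed the other way. It was higher with Go by 0.81 (SE 0.131, limma adjusted p = 0.00748) and with enzastaurin by 1.18 (SE 0.118, limma adjusted p = 0.00031), each against control. NPM1 kept both calls with the slide as a block (limma adjusted p = 0.0262 and 0.0456). GNL3, nucleostemin, was higher by 0.62 with Go and 0.68 with enzastaurin (limma adjusted p = 0.013 and 0.00152). The calls of DKC1 and GNL3 were lost with the slide as a block, at limma adjusted p of 0.0722 to 0.266.

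Of 21 targets in growth metabolism and the cell cycle, enzastaurin against control gave 4 higher, 9 lower and 8 uncalled (median -0.12), beside 55.1% of all genes called. Go against control gave 1 higher, 7 lower and 13 uncalled (median -0.17), beside 31.9% of all genes. Go against enzastaurin gave 2 higher, 1 lower and 18 uncalled (median -0.03), beside 8.46%. The 2 higher genes were CCND2, the cyclin D2 of the G1 phase, and TERT, the catalytic subunit of telomerase. CCND2 read 9.43 and 9.36 with Go, 8.42, 8.43 and 8.17 with enzastaurin, and 9.52, 9.55 and 9.63 in control. As for MYC the enzastaurin arrays were the lowest, but both Go arrays lay below the control arrays.

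CCND2 was higher with Go than with enzastaurin by 1.05 (SE 0.0998, limma adjusted p = 0.00156), and by 1.02 with the slide as a block (limma adjusted p = 0.00681). Its difference between enzastaurin and control was -1.22 (SE 0.0892, limma adjusted p = 0.000143) and kept its call with the slide as a block (limma adjusted p = 0.0161). That call was lost once place along the slide was added to the fit. ODC1, which starts polyamine synthesis and is a classic MYC target, was lower with enzastaurin by -0.61 (SE 0.0756, limma adjusted p = 0.000528), also with the slide as a block (limma adjusted p = 0.0462). HSPE1, a mitochondrial chaperonin, went the other way, with -0.70 for Go against enzastaurin (SE 0.126, limma adjusted p = 0.0147). PAICS, an enzyme of purine synthesis, was lower with Go than in control by -0.68 (SE 0.118, limma adjusted p = 0.0085). In the slide block PAICS (limma adjusted p = 0.0488) and HSPE1 (limma adjusted p = 0.0266) kept these calls, and TERT, higher by 0.52 with Go than with enzastaurin (limma adjusted p = 0.0263), did not (limma adjusted p = 0.0701).

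**Figure D5:**
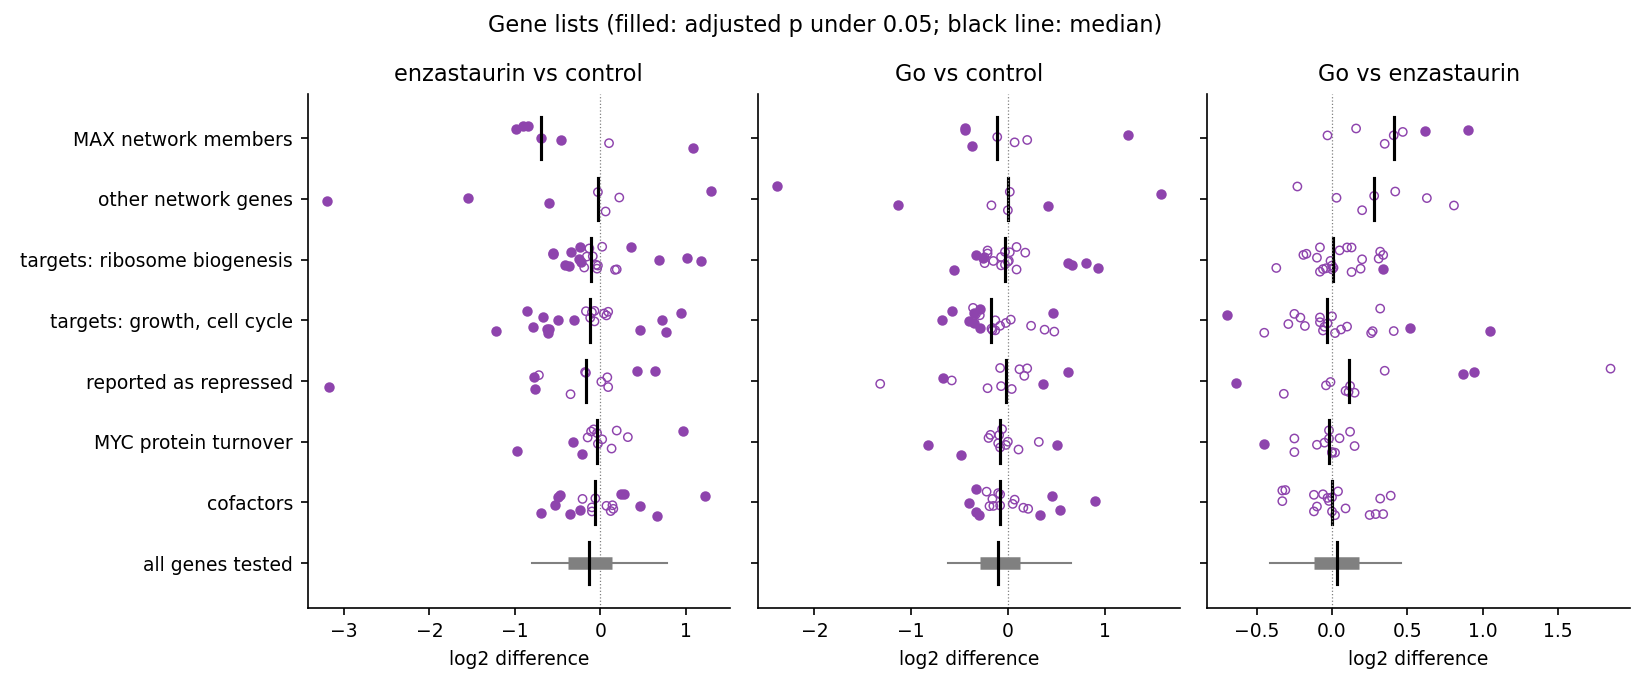
Log2 differences (horizontal axis) of each tested gene in the member list and the lists around it, for enzastaurin against control, Go against control and Go against enzastaurin, filled where limma's adjusted p was under 0.05, with black lines at the medians and the spread of all genes in grey at the bottom (thick bar from the 25th to the 75th percentile, thin line from the 5th to the 95th). Medians of the lists other than the members lie between -0.18 and 0.28, while among filled points CCND2 reaches 1.05 for Go against enzastaurin.

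Genes reported to be repressed by MYC did not move as 1 group. Of 14 on the list 12 were tested. Go against enzastaurin gave 2 higher, 1 lower and 9 uncalled (median 0.11), beside 8.46% of all genes called. GADD45B, a stress-induced growth arrest gene, was higher with Go than with enzastaurin by 0.94 (SE 0.105, limma adjusted p = 0.00228). THBS1, the matrix protein thrombospondin, was higher by 0.87 (SE 0.107, limma adjusted p = 0.0031). Both thus stood on the same side as MYC.

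CDKN1A, the cell cycle inhibitor p21, lay on the opposite side of MYC. It read 9.13 and 9.01 with Go, 9.77, 9.66 and 9.71 with enzastaurin, and 9.39, 9.28 and 9.17 in control, and was lower with Go than with enzastaurin by -0.64 (SE 0.0919, limma adjusted p = 0.00573). With the slide as a block these 3 genes kept their calls (limma adjusted p = 0.0104, 0.0144 and 0.0124). Against control, enzastaurin gave 2 higher, 3 lower and 7 uncalled of the list, beside 55.1% of all genes called. Go gave 2 higher, 1 lower and 9 uncalled, beside 31.9%. CDKN1B, the inhibitor p27, was higher with both, by 0.62 with Go (SE 0.132, limma adjusted p = 0.014) and 0.64 with enzastaurin (SE 0.118, limma adjusted p = 0.00247). The slide block kept the Go call of CDKN1B (limma adjusted p = 0.0262) and not that of enzastaurin (limma adjusted p = 0.0508).

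Regulators of MYC protein turnover act on a level the arrays do not read. Of 13 such genes, enzastaurin against control gave 1 higher, 3 lower and 9 uncalled, Go against control 1 higher, 2 lower and 10 uncalled, and Go against enzastaurin 1 lower and 12 uncalled. The shares of all genes called were 55.1%, 31.9% and 8.46%. SKP2, a ubiquitin ligase subunit for MYC and for p27, was lower with Go by -0.83 (SE 0.153, limma adjusted p = 0.01) and with enzastaurin by -0.98 (SE 0.137, limma adjusted p = 0.000783). USP36, a nucleolar deubiquitinase that acts on MYC, was higher with Go by 0.51 (SE 0.114, limma adjusted p = 0.0157) and with enzastaurin by 0.96 (SE 0.102, limma adjusted p = 0.000353). USP36 was dim, above background on 1 Go array, 2 enzastaurin arrays and 2 control arrays. Neither gene kept a call against control with the slide as a block, with limma adjusted p of 0.0517 and 0.154 for SKP2 and 0.0858 and 0.0585 for USP36 (Go, then enzastaurin).

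Of 19 coactivators and corepressors of the network, enzastaurin against control gave 5 higher, 6 lower and 8 uncalled, Go against control 4 higher, 4 lower and 11 uncalled, and Go against enzastaurin 0 called. These counts stand beside 55.1%, 31.9% and 8.46% of all genes called. The list medians were -0.06, -0.08 and 0.00, beside -0.14, -0.10 and 0.03 over all genes. The SIN3 complex, which the MXD proteins and MNT recruit, was split. SAP30, one of its subunits, was higher with Go by 0.90 (SE 0.13, limma adjusted p = 0.00568) and with enzastaurin by 1.22 (SE 0.116, limma adjusted p = 0.000253), also with the slide as a block (limma adjusted p = 0.014 and 0.0359). SIN3B, a scaffold of the complex, was lower with Go by -0.40 (SE 0.0938, limma adjusted p = 0.0176) and with enzastaurin by -0.69 (SE 0.0839, limma adjusted p = 0.000501). SIN3A, the other scaffold, was lower with enzastaurin by -0.53 (SE 0.0918, limma adjusted p = 0.00182). The scaffold calls were lost in the slide block, at limma adjusted p of 0.072 to 0.0948.

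The genes whose pattern was most like each member were ranked by Pearson correlation over the 8 arrays, among 3078 genes with an SD of at least 0.3. For MYC they were KRT80, a type II keratin, at 0.976, STMN1, the microtubule-destabilising stathmin, at 0.974, TWNK, the mitochondrial DNA helicase, at 0.974, SLC3A2, the heavy chain of amino acid transporters, at 0.973 and GADD45B at 0.971. Only 75 genes exceeded 0.9 with MYC, against 1020 with MAX, 762 with MNT, 562 with MXD1 and 217 with MXD3. MAX had KIF15, HACL1 and ACVR1B first, at 0.998, 0.997 and 0.993. MNT had GPR107, POLRMT and NPEPL1, at 0.997, 0.996 and 0.996. MXD1 had ITGB2, ZBTB4 and C2orf15, at 0.992, 0.991 and 0.991, and MXD3 had DDX23, TACR2 and CYP4F2, at 0.977, 0.966 and 0.966. MXD4 and MXI1 varied by less than that SD and were not ranked. Arrays share slides and treatments, so these values describe patterns only.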

How the data were processed

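RNA of CAL-27 cells was labelled with Cy3 and hybridised to 8 single-colour arrays in 3 groups, per the labels. The scanner tables give the intensity of each spot's foreground and background, a score of signal over noise and the percent of pixels saturated, per the file headers. The deposited value table holds the authors' background-subtracted intensity, neither normalised nor on a log scale, judged by comparison with the scanner tables. No member probe had saturated pixels.

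The deposited probe annotation runs end for end against the spots and was turned round. Replicate spots of a probe then differed by an SD of 0.565 to 0.654 (log2) in place of 3.8 to 4.22, and values ranked across probes correlated with the value table at 0.99 to 0.994 in place of 0.003 to 0.009. The recorded wavelength in the headers is longer than Cy3 emits.

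The mean foreground was corrected for the median background by normexp (offset 50), quantile normalised and put on a log2 scale (R 4.3.3, limma 3.58.1). A probe was above background at a score over 3 and was tested if so on 2 arrays. At most 0.654% of 153 negative control spots passed that score on an array. Symbols came from the files' accessions and names through a RefSeq table for 26789 probes, and 14211 stayed unnamed. Each gene was read from its probe of highest mean. The 3 groups were fitted together (5 residual and 3.74 prior degrees of freedom) and p-values adjusted by Benjamini-Hochberg. A slide block used slides inferred from spot positions (mean 10930.1 to 10951 µm and 10897.1 to 10904.5 µm). Precision is limited by the number of arrays.

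Members and lists were chosen with earlier results of these data known. The text names every member and its probes, every measured gene of the surrounding network, from each other list only genes among the up to 4 called with the lowest adjusted p per comparison, and the genes most correlated with a member. MYC has no printed promoter.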

Additional observations from a re-analysis of the deposited data

How the results depend on the processing

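Each comparison was refitted under 23 alternatives. MYC in Go against enzastaurin was called in all 23, at 0.74 to 0.96 (limma adjusted p 0.00104 to 0.0323). MYC in enzastaurin against control was called in 21, the exceptions being the slide as a block (-0.70) and the slide with position on it, added after seeing the data (-0.81). MYC in Go against control was called with cyclic loess, also added later (0.33), and without control 3 (0.17 to 0.28 over the arrays left out), and reversed when a gene's probes were averaged (-0.01). Members called for enzastaurin against control numbered 0 with either slide fit. They numbered 4 where probes had to be above background on all arrays, and 6 in the other alternatives. The calls missing from the 4 were MXI1, left untested like the uncalled MXD4, and MXD1, read from its other probe (-0.10, limma adjusted p = 0.434). For Go against control, 4 became 1 with scaling to the median, the slide block or only the groups compared, 2 with cyclic loess or the mean of probes, and 0 with slide and position. For Go against enzastaurin, 2 became 1 with the mean of probes or either slide fit. Leaving out 1 array gave 6 to 6, 1 to 4 and 1 to 4 members.

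MXD1 reversed for enzastaurin against control where only probes above background on all arrays were used, so that its other probe stood for it (-0.10), and with slide and position (-0.19), and for Go against enzastaurin without Go 2 (-0.09 to 0.41 over the arrays left out). MNT reversed for Go against control with the mean of probes (0.05). MXD4, uncalled, reversed for enzastaurin against control with 75th percentile scaling (-0.21), median scaling (-0.19), no filter (-0.07) and the slide block (-0.10), for Go against control in the same 4 settings (-0.09, -0.06, -0.08 and -0.03) and without Go 2 (-0.03 to 0.17 over the arrays left out), and for Go against enzastaurin with both scalings (0.12), the slide block (0.07), and without enzastaurin 1 (0.03) or Go 1 (0.07; -0.13 to 0.07 over the arrays left out). The causes were not tested.

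Over all genes, 6959 calls for enzastaurin against control became 541 with the slide block and 33 with position. For Go against control 4035 became 2065 with median scaling, 827 with the slide block, 152 with position and 379 with only the groups compared (827 to 5481 without 1 array). For Go against enzastaurin 1069 became 650 with median scaling, 388 with position and 538 with the replicate block (247 to 1687 without 1 array). The share of calls that were higher moved by over 10 points for Go against control, 36.4%, to 55.8% with median scaling and 54.6% with cyclic loess, and for enzastaurin against control, 32.8%, to 46.2% with cyclic loess. With slide and position no gene of the lists around the members was called against control. The calls against control that ARRDC4, NPM1, CCND2, ODC1, PAICS, CDKN1B and SAP30 kept with the slide block were thus lost.

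With the replicate number as a block MYC was 0.93 for Go against enzastaurin (limma adjusted p = 0.00995), and 6, 3 and 2 members were called. MXD3 lost its call for Go against control (limma adjusted p = 0.0706). For arrays of the same number, deviations from the group means correlated at 0.083, 0.01 and 0.15 between enzastaurin and control, 0.11 and -0.144 between Go and control, and 0.065 and 0.094 between Go and enzastaurin. Deviations of 2 Go arrays from their mean mirror each other, and enzastaurin and control share no slide. These values therefore cannot show whether the numbers pair the arrays.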

Other observations

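Each array carries a block number from 1 to 4 in the scanner output, taken here as its place along its slide. The labels state neither slide nor place. Several members follow that number. On the first slide, with control 1, 2 and 3 in places 1 to 3 and Go 1 in place 4, MAX, MXI1 and MNT read lower at each step and MXD1 higher at each step, already among the control arrays. MXD1 read 7.51, 7.57 and 8.03 on these control arrays, and MNT 11.30, 11.09 and 10.94. Of the 12641 genes tested, 37.8% read higher, or lower, at every step along that slide. On the second slide, with Go 2 in place 1 and enzastaurin 1, 2 and 3 after it, this held for 14.1% of genes and among the members for MXD3 alone. MYC read 12.23, 12.23, 12.45 and 12.51 along the first slide and 12.51, 11.69, 11.55 and 11.58 along the second. Whether place on the slide or treatment sets these values cannot be told apart for Go 1, which is the only treated array on the first slide. The same holds for Go 2 against enzastaurin, since Go 2 is the only Go array on the second slide and holds place 1.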
